A study of Mus musculus with 6 samples.

Results

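MHC class II presentation was described by 7 genes in infarct tissue of mouse hearts. The 7 genes are Cd74, H2-Aa, H2-Ab1, H2-Eb1, H2-DMa, H2-DMb1 and Ciita, and they were chosen by name, with earlier results of these data known. All 7 were found among the 36047 genes to which the transcripts of the libraries could be joined, and all 7 were among the 20094 genes with enough counts to be tested. The mice were C57BL6 animals of 12 weeks (females by the study's methods) without any genetic change, and all 6 underwent temporary occlusion of a coronary artery followed by reperfusion (I/R). LGK-974 was given to 3 of them by mouth after surgery and then daily. It inhibits Porcupine, which puts onto Wnt proteins the lipid without which they are not secreted. The other 3 received the solvent, DMSO. RNA was taken 48 h after I/R from the infarct area alone, with 1 library per mouse and 3 libraries per group. The infarct area is a mixture of dying and surviving cardiomyocytes, fibroblasts, vessels and leukocytes, and uninjured hearts were not analysed here. In such bulk samples fewer cells of a type and less RNA per cell cannot be told apart.

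MHC class II molecules display peptides from engulfed material to CD4 T cells. The alpha and beta chains of a class II molecule meet in the endoplasmic reticulum and are held by the invariant chain, the product of Cd74, which fills the peptide groove and steers the complex to endosomes. There, proteases cut the invariant chain down to a short remnant called CLIP, and H2-DM exchanges CLIP for an antigenic peptide. The genes are switched on together by CIITA, a coactivator that binds no DNA itself but docks on factors bound to the X and Y boxes of their promoters. Dendritic cells and B cells carry class II constantly, and macrophages acquire it, for example under interferon gamma. In the infarcted heart class II marks antigen-presenting macrophages and dendritic cells.

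The 5 genes of the class II molecules and of H2-DM lie together on chromosome 17 (all coordinates are GRCm38 from the GENCODE annotation). H2-DMa, from 34119541 to 34139101, and H2-DMb1, from 34153072 to 34160230, encode the chains of H2-DM and are on the plus strand. H2-Ab1, from 34257689 to 34269419 on the plus strand, and H2-Aa, from 34282744 to 34287823 on the minus strand, encode the beta and alpha chains of the I-A molecule. H2-Eb1, from 34305867 to 34316674 on the plus strand, encodes the beta chain of the I-E molecule. Ciita lies apart on chromosome 16 from 10480059 to 10528418, on the plus strand. All 7 genes are annotated as protein-coding.

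The promoters are shown because the letters through which CIITA acts can be read in them. RefSeq promoter windows of GRCm38.p6, reaching from 250 bases before to 50 bases after a start, were held for 4 of the 7 genes. In 3 of these 4 a GNAAC, the core of the X box, was followed by ATTGG, the core of the Y box, with 30 to 33 bases from the first letter of one to the first letter of the other. In the following stretches, printed 5′ to 3′ along the gene, capitals mark GNAAC first and ATTGG second. The stretch of H2-Aa is chr17:34287847-34287924 on the minus strand, that of H2-Eb1 is chr17:34305756-34305832 on the plus strand and that of H2-DMb1 is chr17:34153077-34153154 on the plus strand.
H2-Aa: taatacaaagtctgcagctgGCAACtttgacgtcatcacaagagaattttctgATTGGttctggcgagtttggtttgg
H2-Eb1: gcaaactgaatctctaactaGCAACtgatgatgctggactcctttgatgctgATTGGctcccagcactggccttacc
H2-DMb1: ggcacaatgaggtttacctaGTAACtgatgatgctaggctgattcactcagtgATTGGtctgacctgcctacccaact
The first letter of GNAAC lay 81, 91 and 94 bases before the start in H2-Aa, H2-Eb1 and H2-DMb1. Both strands of each window were searched, the letters were settled on after the sequences had been seen, and the motifs do not overlap each other. GNAAC alone was in 84.8% of all 32851 windows and ATTGG alone in 37.4%, but the spaced pair was in 0.712%. Both windows of H2-DMa lacked the pair. Cd74, H2-Ab1 and Ciita are named only. Of the other class II genes of the locus, H2-Oa, H2-Ob and H2-Eb2 held the pair in the same order and H2-DMb2 did not, and their counts are given further on. A match of letters is a description and not a site.

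The 6 libraries held 41579787 to 80398211 estimated counts, and mitochondrial genes took 28.2 to 53.7% of them. CPM is the count of a gene scaled to library size, after edgeR's TMM correction for composition. DMSO replicate 1 stood apart from the others. Olfactory, vomeronasal and taste receptor genes, which serve smell and taste and of which 1501 were used as a gauge of stray counts, received 37.5 counts per kilobase of transcript in that library and 3.37 to 13.7 in the other 5. Such a background amounts to 8.54% of the counts of Cd74 in DMSO replicate 1, 24.6% of those of H2-Ab1, 36.9% of those of H2-DMa, 39.3% of those of H2-Eb1, 44.4% of those of H2-Aa, 61.3% of those of H2-DMb1 and 67.2% of those of Ciita. In LGK-974 replicate 3 it amounts to 0.0953% for Cd74 and 3.20% for Ciita. Results on the 7 genes are therefore given with and without DMSO replicate 1.

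Transcripts of class II presentation were more abundant in every LGK-974 library than in every DMSO library for 6 of the 7 genes, all but Ciita. The log2 fold changes of these 6 ran from 0.74 to 1.79, and the median of the 7 was 1.54, where the median of all tested genes was −0.13. After adjustment over all genes, 0 of the 7 passed the test of edgeR. Groups that did not overlap, with LGK-974 higher, were found for 10.7% of all tested genes, and a log2 fold change above 0 for 40.5%. Summed over the 7 genes, LGK-974 replicates 1, 2 and 3 held 70.0, 78.3 and 125 CPM, and DMSO replicates 1, 2 and 3 held 31.3, 35.9 and 35.3 CPM. Without DMSO replicate 1 the groups of all 7 genes were apart, against 16.9% of all genes tested without it, and the median of the 7 was 1.57.

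Cd74 encodes the invariant chain and was the most abundant of the 7. It lies on chromosome 18 from 60803848 to 60812652, on the plus strand. It was measured at 37.7, 44.3 and 61.4 CPM in LGK-974 replicates 1, 2 and 3 and at 11.8, 17.6 and 19.6 CPM in DMSO replicates 1, 2 and 3. The lowest LGK-974 library was above the highest DMSO library, and LGK-974 replicate 3 was the highest of all 6. This gave group means of 47.8 ± 12.2 and 16.3 ± 4.01 CPM (SD, n = 3 each) and a log2 fold change of 1.55 with a standard error of 0.25. The unadjusted p-value of edgeR's quasi-likelihood test across all genes was 0.000339, and the Benjamini-Hochberg adjusted p was 0.368. Without DMSO replicate 1 the log2 fold change was 1.38, with an adjusted p of 0.235 in edgeR.

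**Figure D1:**
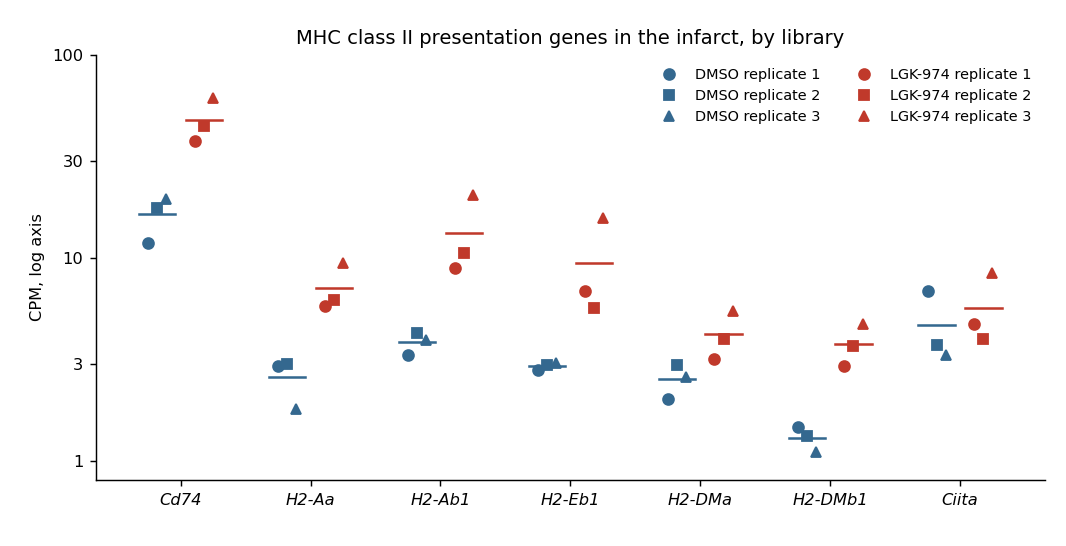
CPM (log axis) of the 7 MHC class II presentation genes in the 6 libraries, with DMSO in blue, LGK-974 in red, a marker shape for each replicate number and a line at each group mean (n = 3). The groups are apart for every gene but Ciita, for which DMSO replicate 1, at 6.88 CPM, lies above LGK-974 replicates 1 and 2.

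The chains of the I-A molecule come from H2-Aa and H2-Ab1. H2-Ab1, the beta chain, was at 8.87, 10.6 and 20.4 CPM in LGK-974 replicates 1, 2 and 3 and at 3.32, 4.24 and 3.93 CPM in the DMSO replicates. The groups were apart, and the DMSO libraries lay close to each other. The log2 fold change was 1.79 with a standard error of 0.34 and an unadjusted p of 0.000774 in edgeR's test, the largest change of the 7 in this fit. H2-Aa, the alpha chain that pairs with it, was at 5.75, 6.18 and 9.39 CPM under LGK-974 and at 2.94, 3.01 and 1.79 CPM under DMSO. Here too the groups did not overlap, with DMSO replicate 3 the lowest library. The log2 fold change was 1.46 with a standard error of 0.32 and an unadjusted p of 0.00203 in edgeR's test.

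H2-Eb1 encodes the beta chain of I-E. C57BL6 mice carry a haplotype whose I-E alpha gene is not expressed, so that this chain is known to have no partner for a surface I-E molecule in this strain. The gene was at 6.83, 5.65 and 15.6 CPM in LGK-974 replicates 1, 2 and 3 and at 2.81, 2.98 and 3.02 CPM in the DMSO replicates. LGK-974 replicate 3 was far above the other two of its group, while the DMSO libraries lay close together. The log2 fold change was 1.67 with a standard error of 0.40 and an unadjusted p of 0.00311 in edgeR's test. It was 1.16 without LGK-974 replicate 3. The alpha gene is annotated here as the pseudogene H2-Ea-ps and had 10 counts in LGK-974 replicate 1, 17 in DMSO replicate 1 and 0 in the other 4 libraries, fewer than the background in both libraries that had any.

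H2-DMa and H2-DMb1 encode the alpha and beta chains of H2-DM, which loads peptides. H2-DMb1 was at 2.93, 3.66 and 4.74 CPM in LGK-974 replicates 1, 2 and 3 and at 1.46, 1.32 and 1.10 CPM in the DMSO replicates. The groups were apart, and its values under DMSO were lower than those of the other 6 genes in any library. This gave a log2 fold change of 1.54 with a standard error of 0.35 and an unadjusted p of 0.00233 in edgeR's test. H2-DMa was at 3.17, 3.96 and 5.49 CPM under LGK-974 and at 2.01, 2.96 and 2.59 CPM under DMSO. The groups were only just apart, with LGK-974 replicate 1 next to DMSO replicate 2. Its log2 fold change was 0.74 with a standard error of 0.33, and its unadjusted p of 0.0542 in edgeR's test missed the threshold. H2-DMb1 has a close paralog, H2-DMb2, beside it, and reads the paralogs share are divided between them by the quantification.

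Ciita encodes the coactivator of the other genes, and no difference could be detected in its level. It was at 4.69, 3.96 and 8.37 CPM in LGK-974 replicates 1, 2 and 3 and at 6.88, 3.74 and 3.31 CPM in the DMSO replicates. The groups overlapped, since DMSO replicate 1 was above LGK-974 replicates 1 and 2. The log2 fold change was 0.29 with a standard error of 0.40, an unadjusted p of 0.488 and an adjusted p of 0.722 in edgeR's test. This value rested on single libraries. Without DMSO replicate 1 it was 0.70, with an unadjusted p of 0.0722 in edgeR and groups apart, and without LGK-974 replicate 3 it was −0.0185. With the receptor background taken off every library the CPM values were apart and the log2 fold change was 0.86, with an adjusted p of 0.372 in edgeR.

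**Figure D2:**
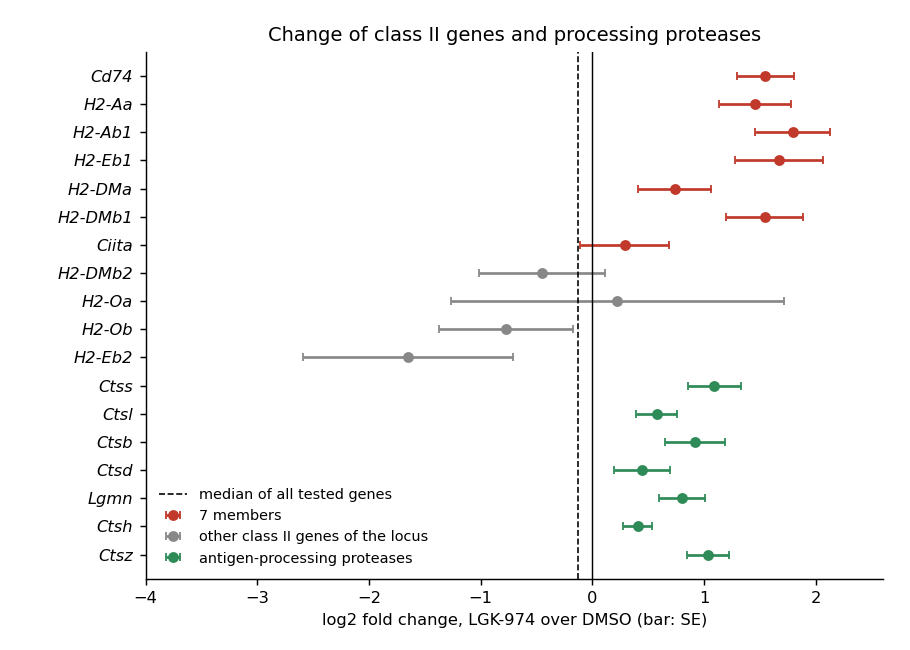
Log2 fold changes of LGK-974 over DMSO with their standard errors (n = 3 per group) for the 7 genes, the other class II genes of the locus that could be tested and the proteases of antigen processing, with the median of all tested genes dashed at −0.13. The 6 genes from Cd74 to H2-DMb1 lie between 0.74 and 1.79, and the other class II genes of the locus lie from −1.65 to 0.22 with wider errors.

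With DMSO replicate 1 left out, the log2 fold changes were 1.71 for H2-Ab1, 1.57 for H2-Aa, 1.65 for H2-Eb1, 1.65 for H2-DMb1 and 0.61 for H2-DMa. In edgeR's quasi-likelihood test on all 6 libraries 5 of the 7 genes had an unadjusted p under 0.05 with LGK-974 higher, against 6.26% of all tested genes. After Benjamini-Hochberg adjustment over the 20094 genes 0 of the 7 passed 0.05, as did 0% of all genes, and the adjusted p was 0.368 for each of the 7 but Ciita. DESeq2, the tool the study used, was run on the same counts and genes and called 354 genes, 2.79% of those to which it gave an adjusted p. Among them were 4 of the 7 genes. Their adjusted p-values in DESeq2 were 5.84e-05 for Cd74, 0.000749 for H2-Ab1, 0.00833 for H2-Aa and 0.0112 for H2-Eb1. H2-DMb1 was given no adjusted p in that run. Without DMSO replicate 1, DESeq2 called 5 of the 7 genes, the same 4 and H2-DMb1, which had an adjusted p of 0.00236, while it called 2.42% of all genes. With no filter on low counts, 5 of the 7 passed in DESeq2, against 1.42% of all genes, and 5 in edgeR, against 3.52%. The call thus depended on the tool and the filter. In simulated gene counts with 1 common dispersion taken from these libraries, 0.238, 28 of 129 calls of DESeq2 were false. There edgeR recovered 19% of the changed genes. At a dispersion of 0.05, 13 of 213 calls of DESeq2 were false, and both tools recovered 100%. Every simulated gene had the same dispersion, so these shares were not measured for genes like the 7. The log2 fold changes of DESeq2 on the same genes were 1.56 for Cd74, 1.81 for H2-Ab1, 1.48 for H2-Aa, 1.70 for H2-Eb1 and 1.57 for H2-DMb1, each within 1 standard error of the value of edgeR.

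Other class II genes of the locus were low. H2-DMb2, the paralog of H2-DMb1, was at 1.10, 1.51 and 1.74 CPM in LGK-974 replicates 1, 2 and 3 and at 3.56, 1.43 and 0.957 CPM in the DMSO replicates, a log2 fold change of −0.45 with a standard error of 0.57. H2-Ob, the beta chain of H2-DO, which restrains H2-DM, was at 1.496, 1.23 and 1.08 CPM under LGK-974 and at 4.17, 1.30 and 1.03 CPM under DMSO, a log2 fold change of −0.77 with a standard error of 0.60. H2-Eb2 was at 0.401, 0.205 and 0.319 CPM under LGK-974 and at 2.12, 0.568 and 0.248 CPM under DMSO, a log2 fold change of −1.65 with a standard error of 0.94. For all 3 of these genes the groups overlapped and DMSO replicate 1, the library with the highest receptor background, was the highest. With that background taken off, DMSO replicate 1 was still the highest for H2-DMb2, at 2.40 CPM, and for H2-Ob, at 3.10 CPM. H2-Eb2 was then at 0 CPM in DMSO replicate 1. H2-Oa, the alpha chain of H2-DO, reached at most 0.344 CPM in any library. Of these 4 tested genes 1 was above 0, against 40.5% of all genes. None had groups apart, where 10.7% of all genes did with LGK-974 higher. The median log2 fold change of the 4 was −0.61, or −0.01 without DMSO replicate 1.

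Levels of different genes were compared within a library by TPM, the deposited value scaled to transcript length. Cd74 was 2.08 to 3.42 times as high as H2-Ab1, the next in order, and H2-Ab1 was 1.55 to 2.83 times as high as H2-Eb1, each in 6 of 6 libraries. The middle of the order was not stable. H2-Eb1 exceeded H2-DMa in 2 of 6 libraries, H2-DMa exceeded H2-Aa in 5 of 6, and H2-Aa exceeded H2-DMb1 in 5 of 6. Ciita was the lowest in every library, with H2-DMb1 at 1.6 to 3.82 times its TPM. For the alpha and beta chains of I-A, the ratio depended on the transcripts counted. Over all transcripts H2-Aa stood at 0.462, 0.483 and 0.327 of the TPM of H2-Ab1 in LGK-974 replicates 1, 2 and 3 and at 0.626, 0.397 and 0.266 in the DMSO replicates, with overlapping groups. For the coding transcripts H2-Aa-201 and H2-Ab1-201 alone the ratio was 0.636 ± 0.0675 under LGK-974 and 0.635 ± 0.169 under DMSO (SD, n = 3 each).

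Cd74 is known for a short and a long form of the invariant chain. The long form contains an extra thyroglobulin-type domain that inhibits cathepsins, and both forms were found. Cd74-201 has 8 exons and encodes 215 residues. Cd74-202 has 9 exons, and its extra coding exon of 192 bases adds 64 residues, giving 279. Cd74-201 was at 28.3, 30.1 and 43.5 CPM in LGK-974 replicates 1, 2 and 3 and at 8.28, 11.02 and 14.5 CPM in the DMSO replicates. For Cd74-202 the values were 9.39, 14.1 and 17.9 CPM under LGK-974 and 3.27, 6.30 and 5.01 CPM under DMSO. Both forms were higher in every LGK-974 library than in every DMSO library, against 8.54% of the 59297 tested transcripts. A log2 fold change above 0 was found for 47.5% of these transcripts. The log2 fold change was 1.62 with a standard error of 0.29 for the short form and 1.53 with a standard error of 0.35 for the long form. Their unadjusted p-values in edgeR's test across transcripts were 0.000911 and 0.00331, with adjusted p-values of 0.654 and 0.729. DESeq2 on the same transcripts called both, with adjusted p-values of 0.000428 and 0.0270, and 0.696% of all tested transcripts. In simulated transcript counts with 1 common dispersion taken from these libraries, 0.606, 40 of 52 calls of DESeq2 were false. At a dispersion of 0.05, 33 of 233 were false. Every simulated transcript had the same dispersion, so the share of false calls was not measured for transcripts like these, and both calls remain uncertain.

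The share of the long form did not differ detectably between the groups. Cd74-202 held 24.9, 31.8 and 29.1% of the counts of Cd74 in LGK-974 replicates 1, 2 and 3 and 27.6, 35.7 and 25.6% in the DMSO replicates. The means of 28.6 ± 3.46% and 29.7 ± 5.36% (SD, n = 3 each) differed by −1.08 percentage points, less than the spread between mice (exact permutation test, two-sided, p = 0.8, where the smallest p that 3 against 3 can give is 0.1). By TPM the share was 25.3 ± 3.21% under LGK-974 and 25.8 ± 4.70% under DMSO (SD, n = 3 each). The other annotated transcripts of Cd74 held at most 2.54% of its counts in any library. For Cd74-203, which also encodes 279 residues, 0 counts were listed in all 6.

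**Figure D3:**
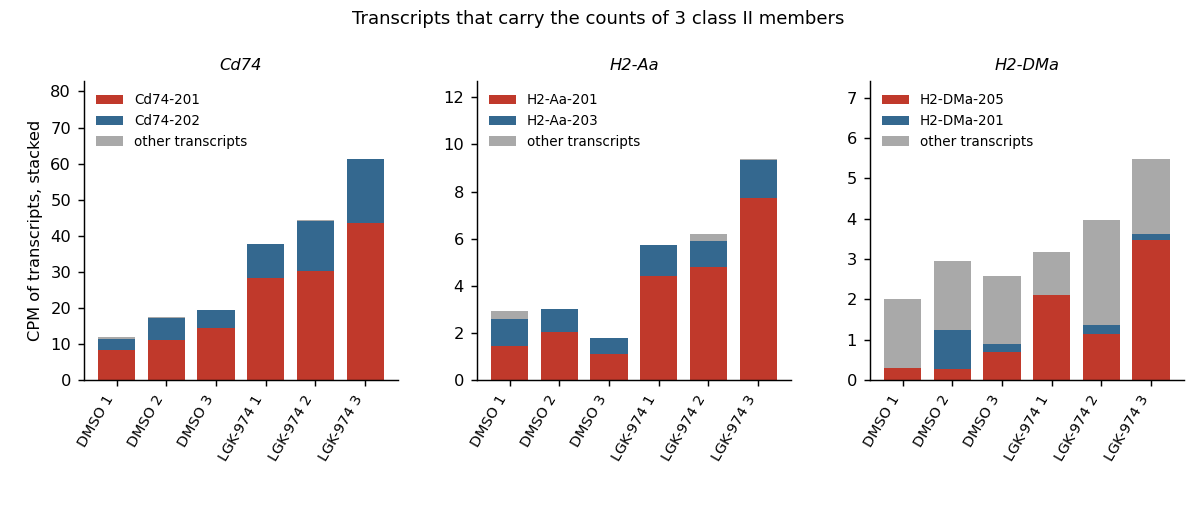
Stacked CPM of the transcripts of Cd74, H2-Aa and H2-DMa in each of the 6 libraries, with the remaining transcripts of each gene in grey. Both forms of Cd74 are taller under LGK-974 in like proportion, the retained-intron transcript H2-Aa-203 changes less than the coding H2-Aa-201, and H2-DMa-205 is taller under LGK-974 while the other transcripts of H2-DMa overlap between the groups.

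Of the 41 transcripts of the 7 genes 22 could be tested, and 19 of these had a log2 fold change above 0. An unadjusted p under 0.05 in edgeR's test was reached by 9, all of them higher under LGK-974, against 3.24% of all tested transcripts, and 0 had an adjusted p under 0.05. The transcripts described next were picked after their values had been seen. The coding transcript H2-Aa-201 was at 4.43, 4.82 and 7.74 CPM under LGK-974 and at 1.47, 2.05 and 1.12 CPM under DMSO, a log2 fold change of 1.90 with a standard error of 0.39. H2-Aa-203, which retains an intron and is not annotated as coding, was at 1.33, 1.09 and 1.59 CPM under LGK-974 and at 1.12, 0.963 and 0.671 CPM under DMSO, with overlapping groups. It held 16.96 to 23.1% of the counts of H2-Aa under LGK-974 and 32.0 to 38.1% under DMSO. H2-Aa-203 is 3223 bases long and had 44.6, 46.55 and 27.3 counts in DMSO replicates 1, 2 and 3. The receptor background in these libraries was 37.5, 13.7 and 3.37 counts per kilobase. It was not taken off single transcripts, which limits these shares. H2-Ab1-201, the full coding transcript of the I-A beta chain, had a log2 fold change of 1.93 with a standard error of 0.34.

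The counts of H2-DMa came from several transcripts. H2-DMa-205, which encodes 261 residues, was at 2.11, 1.16 and 3.47 CPM in LGK-974 replicates 1, 2 and 3 and at 0.305, 0.288 and 0.688 CPM in the DMSO replicates. Its groups were apart, with a log2 fold change of 2.41 and a standard error of 0.65. H2-DMa-201, with a coding sequence of the same length, was highest in DMSO replicate 2, at 0.953 CPM, and at most 0.203 CPM elsewhere. All transcripts of the gene other than H2-DMa-205 summed to 1.07, 2.81 and 2.02 CPM under LGK-974 and to 1.70, 2.67 and 1.90 CPM under DMSO, with overlapping groups. The exons of H2-DMa share 360 bases with those of Brd2, a gene on the opposite strand with up to 6828 counts in a library. The shared bases lie in the short non-coding transcripts H2-DMa-206 and H2-DMa-208 and not in H2-DMa-205. The strand setting of the quantification is not given in the sources used here, so reads of the 2 genes cannot be told apart there.

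Ciita is known to be transcribed from several promoters used by different cell types, the first of them in dendritic cells and macrophages. The annotated transcripts fall on 3 groups of starts, with 8220 bases between the first and the middle group and 1502 bases between the middle and the last. Transcripts of the first group were at 0.514, 0.363 and 1.74 CPM in LGK-974 replicates 1, 2 and 3 and at 0.109, 0.258 and 0.283 CPM in the DMSO replicates. The groups were apart, although these values come from 4.35 to 111 estimated counts per library. The middle group carried most of the counts and was at 4.003, 3.27 and 5.51 CPM under LGK-974 and at 6.22, 2.97 and 2.82 CPM under DMSO, with overlap. In the middle group, Ciita-201 held 53.0 to 85.3% of all counts of Ciita and alone runs 1992 bases past the end of every other transcript of the gene. The 85.3% was that of DMSO replicate 1, where the receptor background amounts to 67.2% of the counts of Ciita. The background was not taken off single transcripts, which limits the levels of all 3 groups of starts. The last group was at 0.172, 0.329 and 1.13 CPM under LGK-974 and at 0.555, 0.509 and 0.208 CPM under DMSO. These groups of transcripts were formed after the values had been seen, so no test of them is given. Ciita shares 329 exon bases with Dexi on the opposite strand.

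A further list covers the machinery that drives Ciita and the class II promoters. It holds the subunits of the RFX and NF-Y complexes, Creb1, and the interferon gamma pathway from Ifng to Irf1. Of 13 tested genes 9 were above 0, against 40.5% of all genes. With LGK-974 higher, 1 had an unadjusted p under 0.05, against 6.26%, and 3 had groups apart, against 10.7%. The median log2 fold change was 0.28, or 0.14 without DMSO replicate 1. Nfyb, a subunit of the factor of the Y box, had groups apart and a log2 fold change of 0.32 with a standard error of 0.16, and Jak1, a kinase of the interferon gamma receptor, had overlapping groups and 0.34 with a standard error of 0.19. Ifng itself had too few counts to be tested and did not exceed 0.352 CPM in any library.

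The proteases of antigen processing are the cathepsins and legumain that cut antigens and the invariant chain. All 7 that were tested had groups apart with LGK-974 higher, against 10.7% of all genes, 6 had an unadjusted p under 0.05, against 6.26%, and the median log2 fold change was 0.81. Ctss, the cathepsin that makes the final cuts of the invariant chain in many antigen-presenting cells, was at 87.9, 91.3 and 115 CPM in LGK-974 replicates 1, 2 and 3 and at 33.2, 58.0 and 46.7 CPM in the DMSO replicates, a log2 fold change of 1.09 with a standard error of 0.24. Ctsz was at 90.8, 79.1 and 89.0 CPM under LGK-974 and at 33.001, 48.7 and 44.7 CPM under DMSO, a log2 fold change of 1.04 with a standard error of 0.19. Lgmn, the asparagine-specific endopeptidase, had a log2 fold change of 0.81 with a standard error of 0.20. DESeq2 on the same genes gave adjusted p-values of 0.0026 for Ctss, 0.000496 for Ctsz and 0.0126 for Lgmn, and edgeR gave 0.368 for each. Without DMSO replicate 1 all 7 still had groups apart, against 16.9% of all genes, with a median of 0.69.

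Genes that set how long class II stays at the surface were above 0 in 5 of 5 tested cases, against 40.5% of all genes. The median log2 fold change was 0.29, and 1 had groups apart with LGK-974 higher, against 10.7% of all genes. Leaving out DMSO replicate 1 gave a median of 0.54 with 3 of 4 apart, against 16.9% of all genes. Taking off the receptor background gave 1.02 with 1 of 4 apart, against 2199 of all 17112 genes tested then. The gene apart with all 6 libraries was Il10ra, a chain of the interleukin-10 receptor, at 5.501, 5.598 and 9.39 CPM in LGK-974 replicates 1, 2 and 3 and at 2.89, 3.23 and 2.65 CPM in the DMSO replicates, a log2 fold change of 1.22 with a standard error of 0.29. March8, a ubiquitin ligase that removes class II from the surface, was at 0.22 with a standard error of 0.16. Cd83, which protects class II from that ligase family, was at 0.40 with a standard error of 0.60. Both had overlapping groups.

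Costimulatory and checkpoint ligands are read by a T cell together with class II. Of 7 tested genes 2 were above 0, against 40.5% of all genes, and 0 had an unadjusted p under 0.05. With LGK-974 higher, 1 had groups apart, against 10.7% of all genes. The median log2 fold change was −0.16, next to −0.13 for all genes. Without DMSO replicate 1 the median was 0.33 and 6 of 7 were above 0, against 47.9% of all genes. In that fit 3 of 7 had groups apart with LGK-974 higher, against 16.9% of all genes. Cd80, a ligand of CD28, was at 7.62, 5.85 and 8.23 CPM under LGK-974 and at 8.36, 5.11 and 4.17 CPM under DMSO, a log2 fold change of 0.30 with a standard error of 0.30. Without DMSO replicate 1 the log2 fold change of Cd80 was 0.66 with a standard error of 0.23 and groups apart. Tnfsf9 was at 0.39 with a standard error of 0.42, and Tnfsf4 was at −1.47 with a standard error of 1.47.

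Among the receptors that bind class II or partner with CD74 at the surface, 3 of 6 tested genes were above 0, against 40.5% of all genes. With LGK-974 higher, 1 had groups apart, against 10.7%. The median log2 fold change was −0.15. The one apart was Cd44, the signalling partner of CD74, at 93.0, 76.3 and 83.8 CPM in LGK-974 replicates 1, 2 and 3 and at 36.7, 48.9 and 48.8 CPM in the DMSO replicates. It had a log2 fold change of 0.91 with a standard error of 0.18 and an adjusted p of 0.00174 in DESeq2 on the same genes. Ddt, a relative of the CD74 ligand Mif, was at −0.61 with a standard error of 0.26, and Cd4, the T cell coreceptor for class II, was at −0.89 with a standard error of 0.52. Both overlapped between the groups. With DMSO replicate 1 left out, Ddt was at −0.77 with groups apart, Cd4 was at −0.12 and the median of the list was −0.05.

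**Figure D4:**
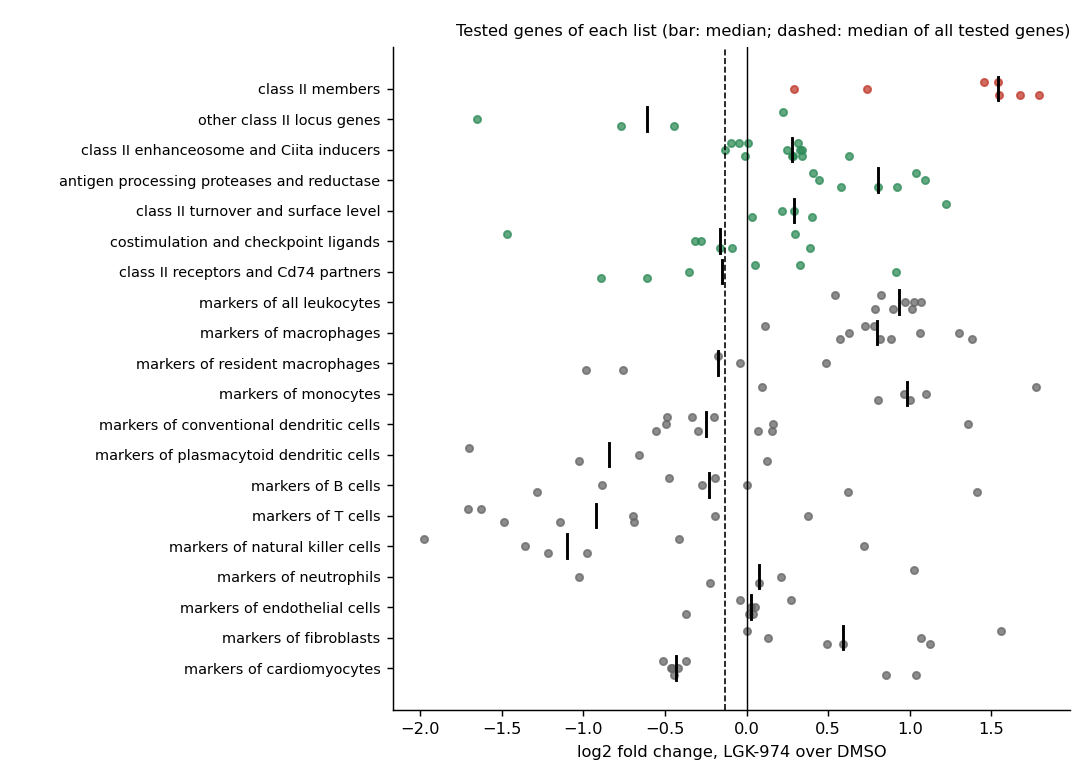
Log2 fold changes of LGK-974 over DMSO for every tested gene of each list, with the 7 genes in red, other lists of the class II pathway in green, cell type markers in grey, a bar at each list's median and a dashed line at the median of all tested genes. The red points and the lists of proteases, all leukocytes, macrophages and monocytes have medians from 0.80 to 1.54, while those of dendritic cells, B cells, T cells and natural killer cells lie below 0. The medians of conventional dendritic cells and B cells were above 0, at 0.28 and 0.34, without DMSO replicate 1.

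Markers of the cells that could carry class II were examined next. Of the markers of all leukocytes 8 of 8 were above 0, 7 with groups apart and LGK-974 higher, with a median log2 fold change of 0.93. Of all tested genes 40.5% were above 0 and 10.7% had groups apart in that direction, and these shares apply to the marker lists that follow. Their summed level was 249 to 344 CPM under LGK-974 and 153 to 189 CPM under DMSO. The smallest p-values among them were those of Cd53, with a log2 fold change of 1.07, and Laptm5, with 1.03. Macrophage markers were above 0 in 10 of 10, 8 with groups apart, with a median of 0.80 and a sum of 584 to 638 CPM against 244 to 393 CPM. Lyz2, lysozyme of macrophages, had a log2 fold change of 1.30 and Adgre1, the F4/80 antigen, 0.88. Monocyte markers were above 0 in 6 of 6, with 2 apart and a median of 0.98, among them Chil3 at 1.10 and Fn1, which fibroblasts also express, at 1.77. Markers of resident macrophages had a median of −0.17 and summed to 30.5 to 87.2 CPM under LGK-974 and 75.9 to 106 CPM under DMSO, with Folr2 at 0.49 and Cd163 at −0.76. That median was −0.15 without DMSO replicate 1 and 0.12 with the receptor background taken off. The part of these cells in the class II result was not tested.

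The markers of conventional dendritic cells and those of B cells summed to less than the macrophage markers in every library. Conventional dendritic cell markers summed to 30.1 to 34.5 CPM under LGK-974 and 26.3 to 40.0 CPM under DMSO, with a median log2 fold change of −0.25 that became 0.28 without DMSO replicate 1. Itgax, the gene of CD11c, which macrophages also express, was at 4.39, 4.45 and 9.59 CPM in LGK-974 replicates 1, 2 and 3 and at 2.73, 2.68 and 1.83 CPM in the DMSO replicates, a log2 fold change of 1.36 with a standard error of 0.39. Clec9a, a receptor of cross-presenting dendritic cells, was at 5.01, 5.36 and 4.57 CPM under LGK-974 and at 7.49, 6.97 and 7.47 CPM under DMSO, a log2 fold change of −0.55 with a standard error of 0.19. These genes are the pair with the smallest p-values in that list, and they lie in opposite directions. B cell markers summed to 11.8 to 13.7 CPM against 7.81 to 20.8 CPM, with a median of −0.23 that turned to 0.34, with 7 of 8 above 0, without DMSO replicate 1. With the receptor background taken off, the medians were 0.91 for conventional dendritic cells and 0.78 for B cells, over the 8 and 5 markers that could then be tested. Cd79b, at 1.41, and Blk, at 0.62, had the smallest p-values of that list, both over 0.05.

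Plasmacytoid dendritic cell markers had a median of −0.84, or −0.47 without DMSO replicate 1 and −0.97 with the receptor background taken off. Siglech was at −1.70 and Ccr9 at −1.03, each highest in DMSO replicate 1. The sum of this list, 393 to 657 CPM against 545 to 943 CPM, came mostly from Tcf4 and Cox6a2, which heart tissue also expresses. T cell markers had a median of −0.92 and a sum of 43.4 to 63.6 CPM against 43.8 to 75.9 CPM, with Cd8a at −1.63 and Cd3e at −1.71. Natural killer cell markers had a median of −1.10 and a sum of 4.87 to 5.57 CPM against 4.06 to 20.1 CPM, with Eomes at −1.22 and Klre1 at −0.98. For Cd8a, Cd3e, Eomes and Klre1 the highest library was again DMSO replicate 1, and without it the medians of the lists were −0.29 for T cells and −0.01 for natural killer cells. With the receptor background taken off, the median of the 4 natural killer cell markers that could be tested was 0.94. Of the neutrophil markers 5 of 8 could be tested, with a median of 0.08, or 0.14 without DMSO replicate 1, and a sum of 32.7 to 45.9 CPM against 40.3 to 79.6 CPM, Cxcr2 being at −1.03 and Mmp8 at 1.02. The defining neutrophil gene Ly6g was at 0 in 3 of 6 libraries.

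Cells of the heart itself can also be induced to carry class II. Endothelial markers had a median log2 fold change of 0.03, or −0.07 without DMSO replicate 1, and a sum of 514 to 569 CPM under LGK-974 and 455 to 617 CPM under DMSO, Vwf being at −0.37 and Kdr at 0.28. Fibroblast markers were above 0 in 7 of 7 with a median of 0.59 and a sum of 2166 to 3825 CPM against 1152 to 1670 CPM. Postn at 1.56 and Col1a2 at 1.07 had the smallest p-values of the list, and Col1a1 was at 1.12. Dcn, at 0.005, and Pdgfra, at 0.13, had overlapping groups. Without DMSO replicate 1, 6 of 7 were above 0 with a median of 0.44. Cardiomyocyte markers, which define the tissue, summed to 18409 to 25565 CPM and 21877 to 29855 CPM, so the heart label held in all 6 libraries. They had a median of −0.43, with 6 of 8 below 0 and the stress gene Nppa at 1.04 and Actc1 at 0.86. The parts of these cells in the class II result were not tested.

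The level of Cd74 was set against that of Ptprc, the gene of CD45 that all leukocytes express, within each library. The log2 ratio of their counts was −0.14, 0.16 and 0.16 in LGK-974 replicates 1, 2 and 3 and −1.28, −0.68 and −0.16 in the DMSO replicates. Every LGK-974 library was above every DMSO library, although LGK-974 replicate 1 and DMSO replicate 3 lay next to each other. The group means differed by 0.77 (exact permutation test, two-sided, p = 0.1, the smallest that 3 against 3 can give). The difference was 0.48 without DMSO replicate 1. Against the macrophage gene Csf1r the difference was 0.78, again with groups apart and p = 0.1 in the exact permutation test. Against Cd68, a macrophage gene of the lysosome, it was 0.46 with overlapping groups, since LGK-974 replicate 1, at −1.38, was the lowest of all 6 (exact permutation test, p = 0.4).

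**Figure D5:**
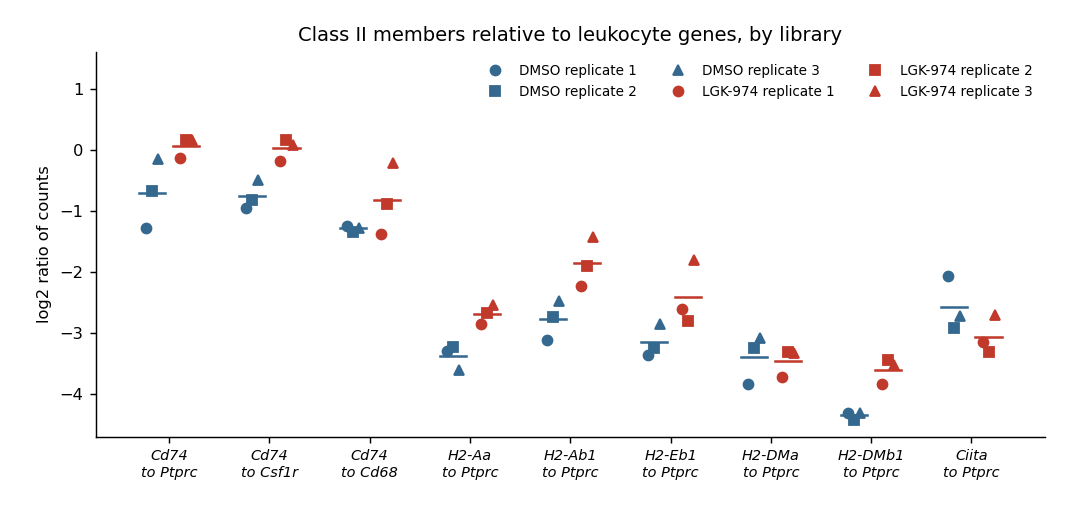
Log2 ratios of counts within each library, of Cd74 to Ptprc, Csf1r and Cd68 and of the other 6 genes to Ptprc, with DMSO in blue, LGK-974 in red, a marker shape for each replicate number and a line at each group mean (n = 3). The groups are apart for Cd74, H2-Aa, H2-Ab1, H2-Eb1 and H2-DMb1 relative to Ptprc and overlap for H2-DMa and Ciita relative to Ptprc and for Cd74 relative to Cd68.

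The other 6 genes were set against Ptprc in the same way, as a description added after the values had been seen. Group means of the log2 ratio differed by 0.68 for H2-Aa, 0.92 for H2-Ab1, 0.74 for H2-Eb1 and 0.74 for H2-DMb1, each with groups apart. H2-DMa differed by −0.06 and Ciita by −0.49, both with overlap.

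Across the 6 libraries the genes varied together to different degrees. The log2 CPM of Cd74 had a Pearson r over 6 libraries of 0.97 with H2-Ab1, 0.94 with H2-DMa, 0.92 with H2-Eb1, 0.92 with H2-DMb1, 0.87 with H2-Aa and 0.24 with Ciita. These points share the division into groups. For the deviations from the group means the r values were 0.83 for H2-Ab1, 0.91 for H2-DMa, 0.65 for H2-Eb1, 0.27 for H2-DMb1, 0.12 for H2-Aa and −0.10 for Ciita. Of 15594 genes with an average log2 CPM of at least 0, the 5 whose levels followed Cd74 most closely were Plcg2, Abi1, Uggt1, Gm16286 and Rbpj, with r from 0.994 to 0.997 and r of the deviations from 0.963 to 0.998. With so many genes and 6 libraries such values are a description only. Plcg2, a phospholipase of immune receptor signalling, was at 18.8, 19.4 and 23.0 CPM in LGK-974 replicates 1, 2 and 3 and at 10.5, 12.2 and 13.1 CPM in the DMSO replicates, a log2 fold change of 0.77 with a standard error of 0.16. Rbpj, the transcription factor of the Notch pathway, had 0.61 with a standard error of 0.17.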

How the data were processed

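RNA from the infarct area of 6 mouse hearts was sequenced, 3 with LGK-974 and 3 with DMSO, and groups were taken from the sample labels. The authors depleted ribosomal RNA, named a capture kit for the libraries and ran kallisto on an index of GRCm38 transcripts (version and strand setting not given in the sources used here). They deposited estimated counts and TPM for each of 118489 transcripts, of which 98.6% were joined to genes of GENCODE M21. The lengths deposited beside the counts served for the background per kilobase.

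For each gene the estimated counts of its transcripts were added and rounded. A gene was tested where 3 libraries or more held a minimum of 10 counts. The test was the quasi-likelihood test of edgeR 4.0.16 (R 4.3.3) on treatment alone, after TMM scaling, with p-values adjusted by Benjamini-Hochberg at 0.05. Transcripts were tested likewise. Standard errors are the log2 fold change divided by the root of the F value. DESeq2 1.42.0 was an alternative, and normalization, filter, scaling from TPM, receptor background, mitochondrial genes, replicate number and left-out libraries were varied. The script was tested on simulated counts, with 200 features changed by a log2 fold change of 2. At the common dispersion of the genes, 0.238, edgeR recovered 19% and DESeq2 50.5%, with 4 of 42 and 28 of 129 calls false. At that of the transcripts, 0.606, edgeR recovered 0% and DESeq2 6%, with 40 of 52 calls of DESeq2 false. At a dispersion of 0.05 both recovered 100%, with 13 of 213 calls of DESeq2 false for genes and 33 of 233 for transcripts. Tables and figures used Python 3.11.15, pandas 2.3.3, SciPy 1.17.1 and Matplotlib 3.10.9.

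Depth was 41579787 to 80398211 estimated counts, and p-values measure the spread between 3 mice per group, whose number limits the precision. The 7 genes, the gene lists and the tests were chosen with earlier results of these data known, so the lists carry no independent support. Named genes were all 7, the other class II genes of the locus, up to 3 genes with the smallest p-values of each pathway list, up to 2 of each marker list and the 5 genes most like Cd74. Where another gene is named, it is because of its place in its list or as a reference. H2-Ea and Ifi30 had no match among the gene names and were not analysed here. Values of some genes that the rule or the lists would name are not reported here.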

Additional observations from a re-analysis of the deposited data

How the results depend on the processing

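The direction of Cd74, H2-Aa, H2-Ab1, H2-Eb1, H2-DMa and H2-DMb1 was the same in each of 16 alternatives, and only Ciita reversed. Ciita had a log2 fold change of −0.0185 without LGK-974 replicate 3, and the cause was not tested. Over the fits that left out 1 library each, the log2 fold change ran from 1.38 to 1.79 for Cd74, from 1.28 to 1.62 for H2-Aa, from 1.41 to 2.003 for H2-Ab1, from 1.16 to 1.99 for H2-Eb1, from 0.56 to 0.89 for H2-DMa, from 1.41 to 1.68 for H2-DMb1 and from −0.0185 to 0.70 for Ciita. Genes called over all genes were 0 in edgeR (1257 higher and 1442 lower at an unadjusted p under 0.05), 0 to 2 with 1 library left out, 1206 with no filter on low counts, 354 in DESeq2 on the same genes, 315 in DESeq2 without a filter, 371 in DESeq2 without DMSO replicate 1 and 1 with the background taken off and DMSO replicate 1 left out. The alternatives that combine DMSO replicate 1 with the background or with DESeq2 were chosen after seeing the data.

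The 7 genes passed the threshold in 0 cases in edgeR, 4 in DESeq2 on the same genes, 5 in DESeq2 without a filter (1.42% of all genes), 5 with no filter on low counts in edgeR (3.52% of all genes) and 5 in DESeq2 without DMSO replicate 1. In these 4 alternatives, in that order, the log2 fold changes of the genes that passed were 1.56, 1.57, 1.66 and 1.36 for Cd74, 1.48, 1.49, 1.63 and 1.56 for H2-Aa, 1.81, 1.82, 1.93 and 1.70 for H2-Ab1 and 1.70, 1.71, 1.82 and 1.64 for H2-Eb1, and in the last 3 they were 1.58, 1.71 and 1.63 for H2-DMb1. Adjusted p-values of H2-DMa ran from 0.23 to 0.772 over the alternatives in edgeR and DESeq2. The pathway lists held 0 called genes of 42 tested in edgeR, 6 of 32 with an adjusted p in DESeq2 on the same genes (2.79% of all genes), 6 of 41 in DESeq2 without a filter (1.42%), 4 of 45 with no filter on low counts (3.52%) and 6 of 38 in DESeq2 without DMSO replicate 1 (2.42%). Transcripts called were 0 in edgeR (1923 higher and 1221 lower at an unadjusted p under 0.05), 411 in DESeq2 on the same transcripts (0.696%) and 1 with no filter on low counts. DESeq2 called Cd74-201 at 1.605 and Cd74-202 at 1.51.

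The replicate numbers 1 to 3 recur in both groups. Deviations of same-numbered libraries from their group means had correlations of 0.475, −0.0482 and 0.391. For libraries of different number these correlations ran from −0.518 to 0.1. Whether the numbers pair mice was not settled by these values, and the main fit took treatment alone. With the replicate number as a block edgeR called 0 genes and 0 transcripts, and Cd74 had a log2 fold change of 1.55 with an adjusted p of 0.0535. The standard error of Cd74 was 0.19 with the block and 0.25 without it. The median of all genes moved from −0.13 to −0.55 with no filter on low counts in edgeR and to −0.75 in DESeq2 without a filter, so fold changes of each are to be read against its own median. The receptor background amounts to 67.2% of the counts of Ciita and 61.3% of those of H2-DMb1 in DMSO replicate 1, which limits both values.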
